A study of Mus musculus with 6 samples.

Results

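Fc receptors and ITAM adaptors are the genes through which macrophages sense antibody-coated particles and several lipid and glycan ligands. The members are 8 genes named by symbol, Tyrobp, Fcer1g, Fcgr1, Fcgr2b, Fcgr3, Syk, Lyn and Trem2, and each was matched to its Ensembl identifier. All 8 were found among the 16665 genes listed. All 8 also had a mean of at least 1 FPKM (fragments per kilobase of exon, scaled to the mapped fragments of the library) and were among the 10166 genes tested. The cells were RAW264.7, a mouse macrophage-like line that comes from a leukaemia and has been kept in culture. One group (3 libraries) received a miR-125b mimic, a synthetic form of that microRNA, by transfection and is labelled as overexpressing it. The other (3 libraries) was transfected with a negative control and is labelled as wild type for miR-125b. All cells grew in the same medium with serum and antibiotics, and neither a dose nor a time after transfection is given by the labels. The series names atherosclerosis and pyroptosis, so the comparison asks what raised miR-125b does to macrophage RNA. Whether the 3 samples of a group were separate cultures is not said, so p-values refer to the scatter of these 6 samples, which may be technical.

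An ITAM is a short stretch in the tail of a membrane protein that carries a pair of tyrosines. Src-family kinases such as LYN phosphorylate them, and the kinase SYK then docks there and starts the signal that leads to phagocytosis, oxidant release and cytokine transcription. The receptors that bind the ligand mostly lack an ITAM of their own. FcγRI (Fcgr1) and FcγRIII (Fcgr3), which bind IgG, pair with the FcRγ chain (Fcer1g), and TREM2, which binds lipids and lipoproteins, pairs with DAP12 (Tyrobp). FcγRIIb (Fcgr2b) works the other way: its tail holds an inhibitory motif, an ITIM, that recruits the phosphatase SHIP1. In macrophages the balance of activating and inhibitory Fcγ receptors sets how strongly immune complexes are answered, and TREM2 with DAP12 is known from lipid-laden macrophages of plaques.

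The sequences that the design turns on are the microRNA and its possible sites in these genes. The arm of miR-125b that the mimic holds is not named in the labels. The mature 5p arm is listed by RefSeq (GRCm38.p6) at 2 loci, plus strand of chr9:41581940-41581961 and of chr16:77646279-77646300, with the same bases at both. It is printed first, with the seed, bases 2 to 8, in capitals. Sites were searched as the 7 letters CTCAGGG (called 7mer-m8), the 7 letters TCAGGGA (7mer-A1) and their union CTCAGGGA (8mer). An 8mer was not counted again as a 7mer. The search for sites covered the sense strand of the 3′ UTR of the coding transcript kept for each gene from GENCODE M21. Sites in a gene's other transcripts would not be seen. Only Fcgr1 of the 8 members held one, a 7mer-A1 at base 353 of the 1367 bases of its 3′ UTR, on the minus strand of GRCm38 chr3:96283917-96283923. It is printed second, with the site in capitals.
mmu-miR-125b-5p: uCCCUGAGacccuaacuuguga
Fcgr1 site: ggtggatgggtTCAGGGAaaggcctcccc

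That is 1 of 8 members with a site, where 2063 of the 9307 tested genes with a 3′ UTR (22.2%) held at least 1. Fcgr1 was also among the members whose group means lay closest together, as given below. The SE of that difference was the widest of the members (0.34 on the log2 scale), and whether the site acts was not tested. The 3′ UTRs of the other 7 run from 173 bases (Tyrobp) to 2997 bases (Syk) and do not hold these letters. A match or its absence describes letters only.

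The libraries held 14.45 to 16.81 M fragments, recovered from the whole-number steps of low FPKM values. The labelled cell type was checked against its markers: 8 of 8 macrophage markers (Ptprc, Csf1r, Adgre1, Cd68, Cd14, Itgam, Lyz2 and Spi1) read at least 11.7 FPKM in every library, and their summed level was 7161 to 8632 in controls and 6406 to 6673 in mimics. A single marker reached 7838 FPKM, so the sums do not describe the markers as a set. Of 27 markers of T, B, natural killer and mast cells, neutrophils, fibroblasts and epithelium, 6 were listed and 0 averaged 1 FPKM. The highest single value among them was 0.600 FPKM, and the mast cell markers Kit, Cpa3, Fcer1a and Ms4a2 were not among the genes listed. Negative control 3 stood apart from the other 2 controls: in 6684 of the 10166 tested genes (65.7%) its value was closer to the mimics' mean than to theirs. It also had fewer genes above 0, 13266 against 15141 to 15470 in the other 5 libraries. Its chi-square per gene over recovered fragments was 89.7 to control 1 and 90.5 to control 2. To the mimics it was 29.0 to 48.7. Mimic 3 was the farthest of its group, with a chi-square per gene of 23.3 and 26.3 to mimics 1 and 2, where these 2 had 6.37 between them. Negative control 3 is kept as labelled, and values without it are given where they differ.

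None of the 8 members passed the test across all genes. By limma on log2(FPKM + 1), 0 of 10166 tested genes (0%) had an adjusted p under 0.05, with 1344 at an unadjusted p under 0.05, and voom, limma's model for the recovered fragments, also called 0 (1383 unadjusted). The log2 fold change, mimic minus negative control, was below 0 for 8 of the 8 members, against 43.7% of all tested genes, and for 7 of 8 (not Fcgr1) once a trend on exon length and GC content was taken out of each library. With 1 library left out it was below 0 for 6 to 8 of the 8. Its median over the members was −0.14 and over all tested genes 0.041. Without negative control 1 these were −0.072 and 0.064, without control 2 −0.082 and 0.058, without control 3 −0.31 and −0.006, and without mimic 2 −0.21 and 0.031. After removal of the length and GC trend they were −0.17 and −0.003. The members' values ran from −0.48 (Fcgr3) to −0.016 (Lyn). In bulk RNA, fewer cells carrying a transcript and less of it per cell cannot be told apart. Both ITAM adaptors had 3 mimic values below all 3 control values, so 2 of 8 members did, against 7.49% of tested genes that did so in this direction and 12.6% in the other (0 of 8 members). The same 2 were the members with a lower mean in mimics at an unadjusted limma p under 0.05, against 5.26% of tested genes.

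**Figure D1:**
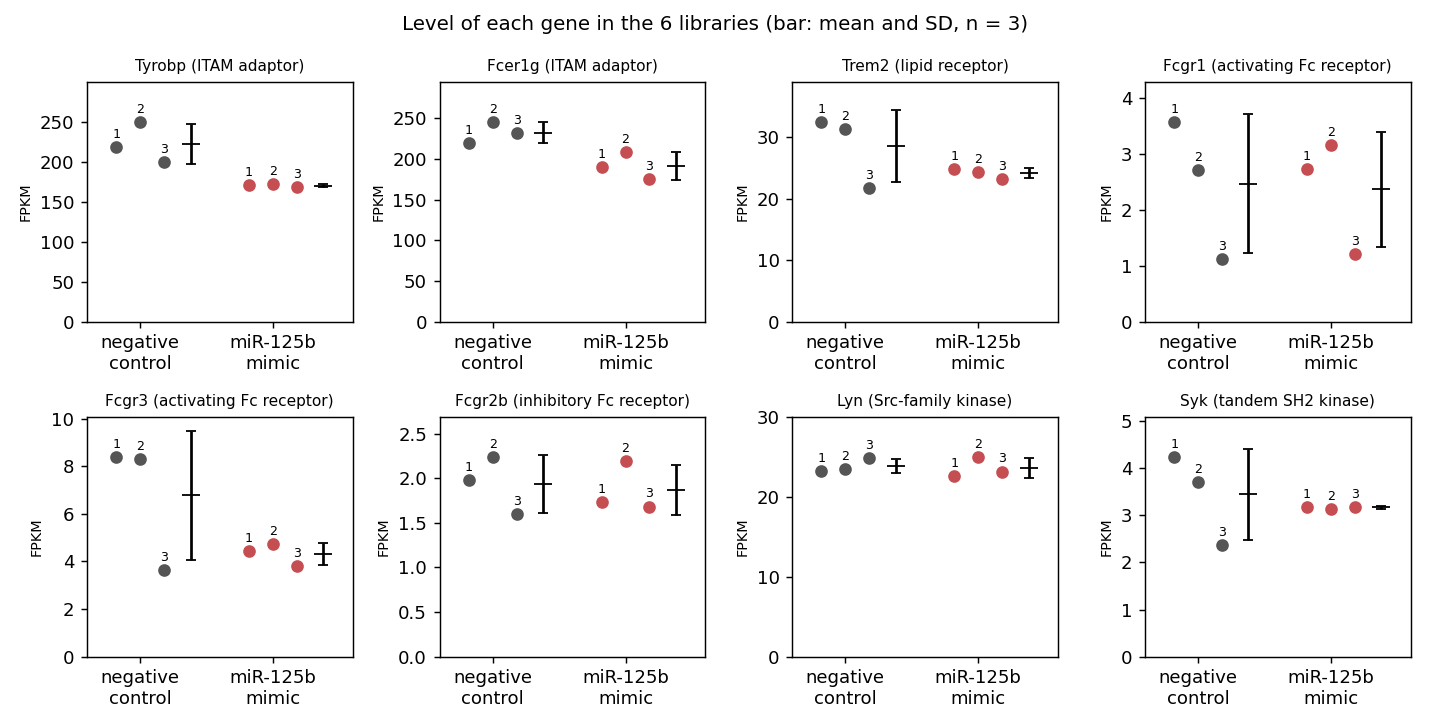
FPKM of each of the 8 genes in the 3 negative control (grey) and 3 mimic (red) libraries, numbered by replicate; black bars are the mean and SD of each group. The 3 mimic values of Tyrobp (168 to 172) and Fcer1g (175 to 209) sit below all their controls, while in Trem2, Fcgr3 and Syk negative control 3 sits below the mimics.

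The adaptors were the most abundant members. Tyrobp (ENSMUSG00000030579, DAP12; GRCm38 chr7:30413760-30417585, plus strand) carries the ITAM signal for TREM2 and many other receptors. It read 219, 249.9 and 199.8 FPKM in negative controls 1, 2 and 3, and 171, 172 and 168 in mimics 1, 2 and 3. The mimic libraries lay close together and all below the lowest control. The means were 223 ± 25.3 and 170 ± 2.09 (SD, n = 3), a log2 fold change of −0.38 (SE 0.12; limma adjusted p = 0.332, unadjusted p = 0.0149). With a trend on exon length and GC content removed from each library it was −0.22 (adjusted p = 0.511) and under quantile normalisation −0.17 (adjusted p = 0.509).

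Fcer1g (ENSMUSG00000058715, the FcRγ chain; chr1:171229572-171234365, minus strand) is required at the surface by the activating Fcγ receptors and by the high-affinity IgE receptor. Its values were 219.6, 245 and 232 FPKM in controls 1 to 3 and 190.3, 209 and 175 in mimics 1 to 3. The highest mimic was below the lowest control. The means were 232 ± 12.7 and 191 ± 17.0 (SD, n = 3), a log2 fold change of −0.28 (SE 0.12; limma adjusted p = 0.368). It was −0.17 without the length and GC trend (adjusted p = 0.683) and −0.056 under quantile normalisation (adjusted p = 0.839). The exons of Tyrobp and Fcer1g come to 667 and 874 bases, the shortest totals among the members. A lower mean in mimics was not particular to the adaptors. Both check genes had one, Actb at −0.35 (SE 0.18; limma adjusted p = 0.436) and Gapdh at −0.61 (SE 0.23; limma adjusted p = 0.348). The groups of Gapdh did not overlap and those of Actb did.

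Of the receptors, Trem2 (ENSMUSG00000023992; chr17:48346401-48354147, plus strand) read 32.4, 31.3 and 21.8 FPKM in controls 1 to 3. Mimics 1 to 3 read 24.8, 24.3 and 23.2. The groups overlapped because control 3 lay below the 3 mimics, and the other 2 controls lay above them. The log2 fold change was −0.21 (SE 0.16; limma adjusted p = 0.587). Without negative control 3 it was −0.39 (adjusted p = 0.0150), and −0.29 once the length and GC trend was also taken out (adjusted p = 0.0637).

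Fcgr3 (ENSMUSG00000059498; chr1:171051174-171064935, minus strand), the low-affinity activating IgG receptor, had the widest difference of means on the log2 scale among the members. It read 8.38, 8.29 and 3.64 FPKM in controls 1 to 3, and 4.43, 4.72 and 3.82 in mimics 1 to 3. Controls 1 and 2 were high, and control 3 was the lowest of the 6. The means were 6.77 ± 2.71 and 4.32 ± 0.459 (SD, n = 3), a log2 fold change of −0.48 (SE 0.28; limma adjusted p = 0.485). Without negative control 3 it was −0.81 (SE 0.11, adjusted p = 0.00697). After removal of the length and GC trend too it was −0.67 (adjusted p = 0.0193), and Fcgr3 was then the 1 member called.

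Fcgr1 (ENSMUSG00000015947; chr3:96282909-96293969, minus strand), the high-affinity IgG receptor, followed the replicate number more than the group. It read 3.57, 2.71 and 1.13 FPKM in controls 1 to 3 and 2.73, 3.16 and 1.21 in mimics 1 to 3. The 2 libraries numbered 3 were the lowest in their groups. The means were 2.47 ± 1.24 and 2.37 ± 1.03 (SD, n = 3), with a log2 fold change of −0.025 (SE 0.34; limma adjusted p = 0.983). Its estimate turned positive with the length and GC trend removed (0.089), without negative control 1 (0.21), without negative control 2 (0.058) and without mimic 3 (0.25). The value rests on 43 to 144 recovered fragments a library, the fewest of the members.

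Fcgr2b (ENSMUSG00000026656; chr1:170958617-170976547, minus strand), the inhibitory receptor, read 1.98, 2.24 and 1.597 FPKM in controls 1 to 3. In mimics 1 to 3 it read 1.73, 2.20 and 1.68. The groups overlapped almost wholly (log2 fold change −0.033, SE 0.16; limma adjusted p = 0.943), and the sign turned without negative control 2 (0.040), mimic 1 (0.00039) or mimic 3 (0.014). Fcgr2b and Fcgr3 arose by duplication and share sequence. Of the 50-base stretches of the Fcgr3 coding transcript, 12.8% also occur in Fcgr2b transcripts, and it is not known how the authors' counting split such fragments.

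The kinases did not separate the groups. Lyn (ENSMUSG00000042228; chr4:3678115-3813122, plus strand), the Src-family kinase that phosphorylates ITAMs and ITIMs, read 23.3, 23.5 and 24.9 FPKM in controls 1 to 3, and 22.7, 25.01 and 23.2 in mimics 1 to 3. The spread within each group was larger than the difference of the means (log2 fold change −0.016, SE 0.10; limma adjusted p = 0.962), whose sign turned without negative control 3 (0.013) or mimic 1 (0.012). This does not show that Lyn is the same in both. Of its 50-base stretches 21.8% occur in transcripts of other genes, 15.9% in Gm11787. Its exons and those of Fcgr2b overlap an antisense gene by 248 and 155 bases, and it is not known whether the counting used strand. The antisense gene at Lyn, Gm26857, was not among the genes listed. That at Fcgr2b, Gm38204, read at most 0.34 FPKM, in mimic 1.

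Syk (ENSMUSG00000021457; chr13:52583173-52648792, plus strand), the kinase that binds phosphorylated ITAMs, read 4.24, 3.72 and 2.37 FPKM in controls 1 to 3. Mimics 1 to 3 read 3.19, 3.14 and 3.19. The mimics lay within a narrow band, with control 3 below it and the other 2 controls above (log2 fold change −0.067, SE 0.18; limma adjusted p = 0.896). It was 0.064 without negative control 1 and −0.25 without negative control 3 (adjusted p = 0.133).

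**Figure D2:**
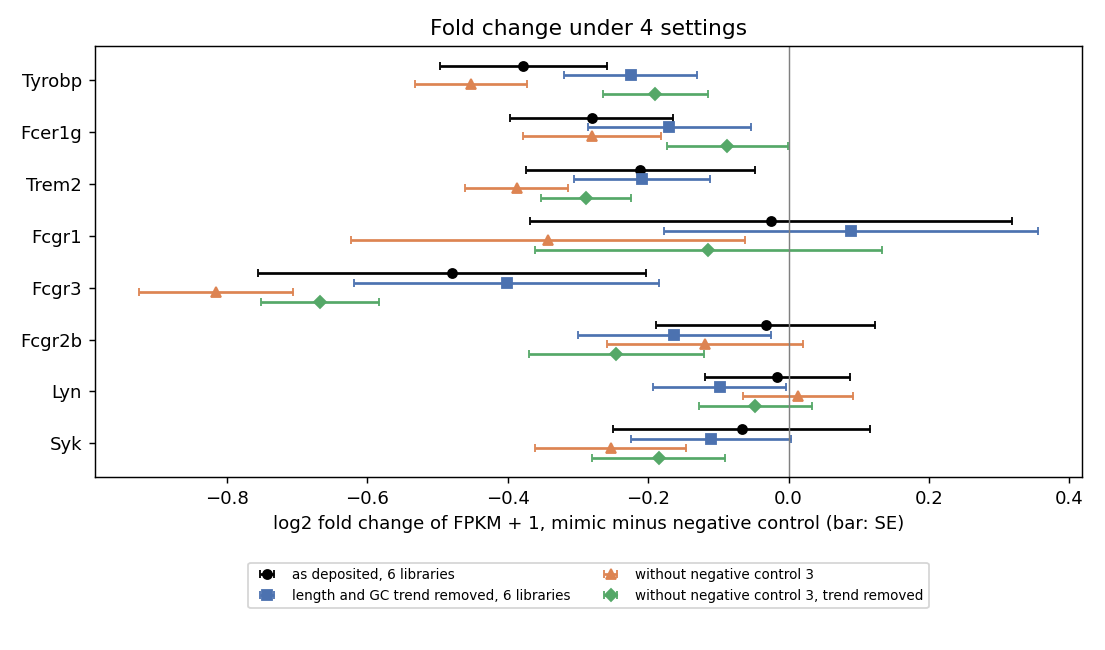
Log2 fold change of FPKM + 1, mimic minus negative control, with its SE for the 8 genes in 4 settings: as deposited, without the length and GC trend, without negative control 3, and with both. Fcgr3 has the lowest value in each setting, and the estimates of Fcgr1 and Lyn lie on both sides of 0.

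The calls turned on negative control 3. In 5 of 8 members (Fcgr1, Fcgr2b, Fcgr3, Syk and Trem2) it was the lowest of the 6 libraries, against 37.3% of tested genes. In 6 of 8 (75.0%) it was closer to the mimics than to the other controls, against the 65.7% given above. Without it limma called 3 of 8 members lower (Fcgr3, Trem2 and Tyrobp, the last with −0.45 and adjusted p = 0.0124), against 12.2% of tested genes called lower. After removal of the length and GC trend too it called 1 of 8, Fcgr3, against 2.88%, and Tyrobp stood at −0.19 (adjusted p = 0.184). With library weights estimated from the data, which gave negative control 3 a weight of 0.09 and mimic 3 one of 0.31, limma called 4 of 8 lower (Tyrobp, Fcer1g, Fcgr3 and Trem2), against 24.1%. The estimation of those weights stopped before its tolerance was reached. In Fcgr3 and Trem2 the library left out read below every mimic, so their calls rest on leaving it out or giving it little weight.

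**Figure D3:**
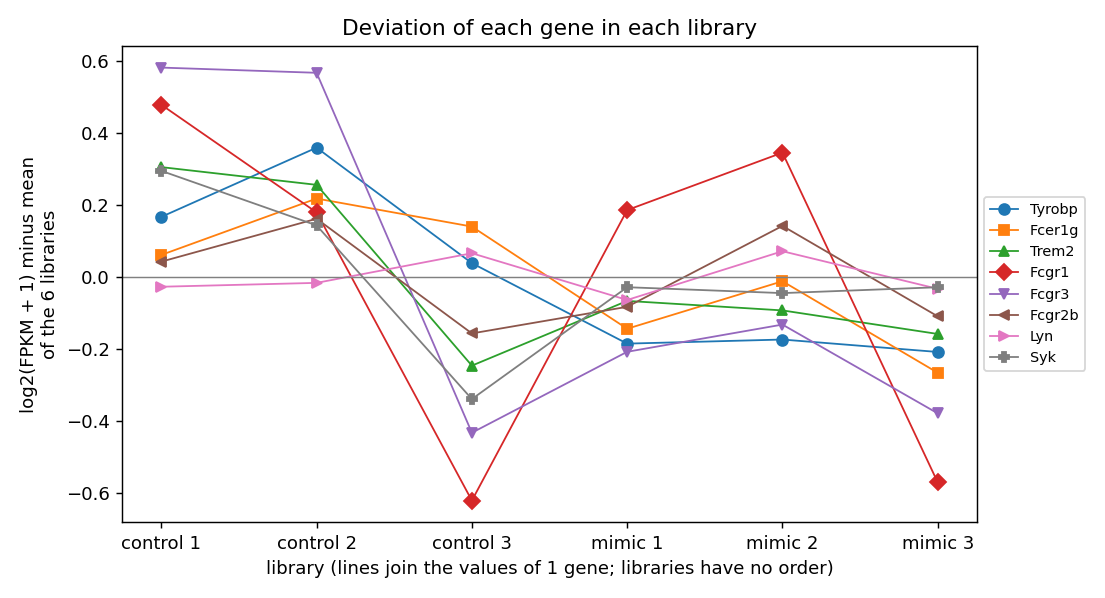
Log2(FPKM + 1) of each gene in each library minus that gene's mean over the 6 libraries; lines join the values of 1 gene. Fcgr3, Fcgr1, Syk and Trem2 are above 0 in controls 1 and 2 and below 0 in control 3, while Tyrobp and Fcer1g stay above 0 in all 3 controls and Lyn stays near 0.

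FPKM is a value per length, so levels can be set side by side. In controls the order of mean FPKM from the highest was Fcer1g, Tyrobp, Trem2, Lyn, Fcgr3, Syk, Fcgr1 and Fcgr2b, and it was the same in mimics. In controls the ranges of Fcer1g and Tyrobp overlapped, as did those of Trem2 and Lyn, Fcgr3 and Syk, Syk and Fcgr1, and Fcgr1 and Fcgr2b. In mimics Fcer1g (175 at the lowest) lay above Tyrobp (172 at the highest) and Fcgr3 (3.82) above Syk (3.19), while Trem2 and Lyn, Syk and Fcgr1, and Fcgr1 and Fcgr2b overlapped. These levels depend on the length used: the union of Trem2 exons is 4946 bases and its coding transcript 1088, so a shorter length would raise its FPKM. For Tyrobp the 2 lengths are 667 and 597 bases, for Fcgr2b 5790 and 3544, and for Fcgr1 2589 in both. The order of neighbours, such as Fcgr1 and Fcgr2b, can therefore depend on the length used.

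By FPKM, adaptor RNA exceeded receptor RNA in every library. The summed FPKM of the activating Fcγ receptors Fcgr1, Fcgr3 and Fcgr4 was 13.5, 13.4 and 6.18 in controls 1 to 3, and 10.9, 9.90 and 6.52 in mimics 1 to 3. Fcer1g stood 16.3 to 37.5 times above that sum in controls and 17.5 to 26.8 times in mimics, and the ranges overlapped. Tyrobp stood 6.75 to 9.18 times above Trem2 in controls and 6.90 to 7.25 times in mimics. These multiples depend strongly on the exon lengths used, above all that of Trem2. Recovered fragments, not divided by length, were more for Trem2 than for Tyrobp in control 1 (2497 and 2273) and in each mimic. In controls 2 and 3 they were fewer. Fcgr4, the other activating receptor that uses the FcRγ chain, is no member and was picked after its values were seen. It read 1.53, 2.42 and 1.41 FPKM in controls 1 to 3 and 3.75, 2.01 and 1.501 in mimics 1 to 3 (log2 fold change 0.26, SE 0.27; limma adjusted p = 0.688; −0.0028 without mimic 1).

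Ratios of 2 members within a library do not depend on its scaling. Their levels do depend on the lengths used, which drop out of the differences between groups. For 5 ratios the difference between groups was tested with a two-sided exact permutation test over the 6 libraries, which cannot go below p = 0.10. The ratio of activating Fcgr3 to inhibitory Fcgr2b was 4.23, 3.70 and 2.28 in controls 1 to 3 and 2.55, 2.15 and 2.27 in mimics 1 to 3. Controls 1 and 2 were above every mimic and control 3 was within them. The difference of mean log2 ratios was −0.51 (exact permutation p = 0.20, adjusted over the 5 ratios 0.667). It was −0.77 without negative control 3 and −0.30 after removal of the length and GC trend. For Fcgr1 over Fcgr2b it was 0.025 (exact p = 0.90, adjusted 0.90), with ratios of 0.707 to 1.80 in controls and 0.716 to 1.57 in mimics. For Fcer1g over Tyrobp it was 0.098 and for Trem2 over Tyrobp 0.16 (exact p = 0.40 and adjusted 0.667 for both), and for Lyn over Syk 0.060 (exact p = 0.90, adjusted 0.90). FPKM of Fcer1g was 0.980 to 1.16 times that of Tyrobp in controls and 1.04 to 1.21 times in mimics.

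**Figure D4:**
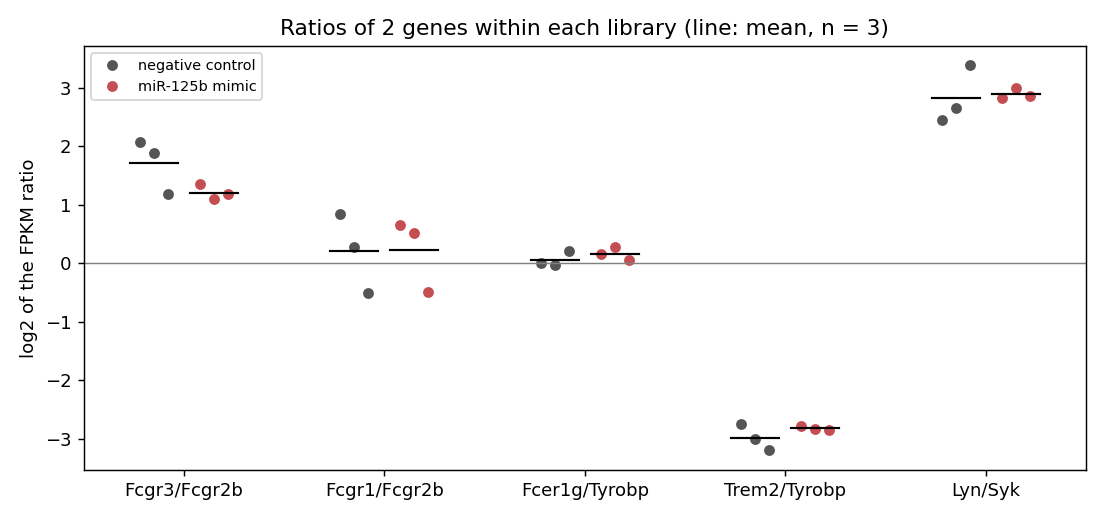
Log2 of the ratio of 2 genes' FPKM within each library, 3 negative control (grey) and 3 mimic (red) points per ratio, with lines at the group means. Fcgr3 over Fcgr2b has the widest gap between means (−0.51), and the points of the groups overlap in each of the 5 ratios.

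The wider pathway was taken from 5 lists by role, with 99 tested genes, none of them a member, and in each list 0 genes passed limma over all tested genes. Of 27 further receptors and adaptors of the ITAM kind 16 were listed and 9 tested, 5 with a higher mean in mimics and 4 with a lower one (median 0.046 on the log2 scale). That median was −0.010 after removal of the length and GC trend, −0.044 without negative control 3 and −0.068 without mimic 2, and 0.16 without mimic 3. Hcst, which encodes DAP10, an adaptor without an ITAM, read 7.99, 9.64 and 13.4 FPKM in controls 1 to 3 and 7.86, 7.51 and 5.31 in mimics 1 to 3 (−0.51, SE 0.21; limma adjusted p = 0.368). Its groups did not overlap, and its estimate was 0.0060 when negative control 3 and the length and GC trend were taken out. Cd300lb, a receptor that pairs with DAP12, stood at 0.34 (SE 0.19) and Clec4d, a C-type lectin that uses the FcRγ chain, at −0.26 (SE 0.22).

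Signalling proteins just behind the ITAM had 34 of 36 genes tested, 20 higher and 14 lower (median 0.093). Without negative control 3 there were 15 higher and 19 lower (median −0.059), and the median was −0.040 with library weights and 0.041 after removal of the length and GC trend. Cbl, a ubiquitin ligase that tags SYK and its receptors for degradation, read 26.5, 26.6 and 21.6 FPKM in controls 1 to 3 and 37.6, 34.8 and 32.7 in mimics 1 to 3. All 3 mimics lay above all 3 controls (log2 fold change 0.48, SE 0.13; limma adjusted p = 0.332). Dok3, an inhibitory adaptor, read 34.9 ± 1.35 and 25.2 ± 3.75 FPKM (SD, n = 3; −0.46, SE 0.13), and Grb2, the adaptor that brings SOS to the receptor, 42.8 ± 5.48 and 31.6 ± 3.38 (−0.42, SE 0.14), each with 3 mimics below 3 controls. With the length and GC trend removed Cbl stood at 0.28, Dok3 at −0.23 and Grb2 at −0.32. Without negative control 3 limma called 10 of the 34, Cbl, Dok3 and Grb2 among them. Of these 4 were higher, where 11.6% of all tested genes were called higher, and 6 lower, where 12.2% were.

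The list of the ITIM arm, with receptors, adaptors and phosphatases, had 14 of 24 genes tested, 6 higher and 8 lower (median −0.041). It was drawn up by role, and whether each mouse receptor in it carries an ITIM was not checked. After removal of the length and GC trend 8 were higher and 6 lower (median 0.056), and the median was 0.061 without negative control 1 and −0.16 without negative control 3. Dok2, an inhibitory adaptor, read 13.5 ± 0.737 and 9.49 ± 1.25 FPKM (SD, n = 3; −0.47, SE 0.13; limma adjusted p = 0.332). The sialic acid receptor Cd33 stood at 0.51 (SE 0.17), with control 3 at 6.43 and mimic 3 at 6.52 FPKM almost level, and Cd300a at 0.33 (SE 0.12). Of the 4 tested phosphatases of this arm Ptpn11 (SHP-2) stood at 0.14 and Inppl1 (SHIP2) at −0.12. The other 2 are described here after their values were seen. Ptpn6 (SHP-1) read 103, 103 and 46.9 FPKM in controls 1 to 3 and 64.9, 65.1 and 53.6 in mimics 1 to 3, the same pattern as Fcgr3 with control 3 lowest (−0.37, SE 0.30; limma adjusted p = 0.602; −0.75 and adjusted p = 0.00712 without negative control 3). Inpp5d (SHIP1), which FcγRIIb recruits, read 15.03 ± 2.59 and 14.1 ± 0.866 (−0.073, SE 0.15).

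Of 26 tested genes of phagocytic uptake 6 were higher and 20 lower in mean (median −0.18), where 43.7% of all tested genes were lower. Cyba, a membrane subunit of the phagocyte NADPH oxidase, read 95.3, 109 and 70.9 FPKM in controls 1 to 3 and 60.5, 60.4 and 57.9 in mimics 1 to 3 (log2 fold change −0.59, SE 0.16; limma adjusted p = 0.332). The scavenger receptor Cd36 stood at −0.51 (SE 0.17) and the actin-severing protein gelsolin, Gsn, at −0.36 (SE 0.12), each with 3 mimics below 3 controls. With the length and GC trend removed Cyba stood at −0.35, Cd36 at −0.75 and Gsn at −0.18, and the list median was −0.13. Partners and shedding enzymes of TREM2 had 7 of 16 tested higher and 9 lower (median −0.15, −0.029 with that trend removed, −0.078 without negative control 1 and 0.035 under a filter at a mean of 5 FPKM). Spp1, the secreted protein osteopontin, read 4891 ± 707 and 3571 ± 420.1 FPKM (SD, n = 3; −0.45, SE 0.18; 0 under quantile normalisation). Quantile normalisation gives a gene that holds the same rank in every library the same value, so that 0 carries no information on Spp1. Adam10, a protease that sheds TREM2 from the surface, stood at 0.39 (SE 0.17), and the galectin Lgals3, reported as a TREM2 ligand, at −0.23 (SE 0.11; −0.017 with the trend removed).

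**Figure D5:**
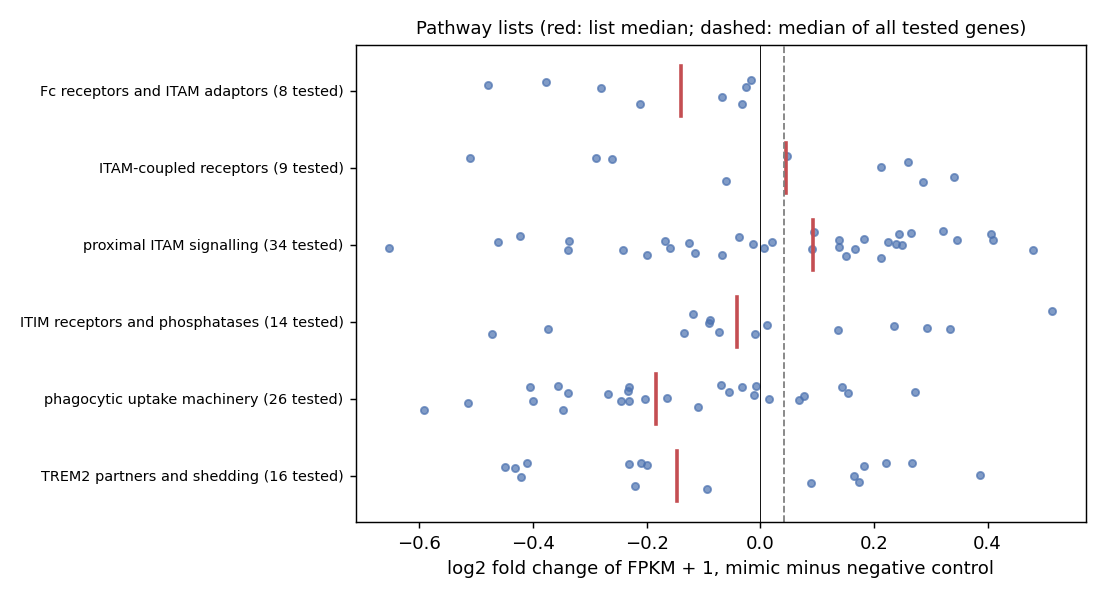
Log2 fold change of FPKM + 1, mimic minus negative control, for each tested gene (points) of the 8 Fc receptor and ITAM adaptor genes and of 5 pathway lists; red bars are list medians and the dashed line is the median of all tested genes (0.041). The 8 members lie below 0 (median −0.14), proximal signalling genes lie on both sides (0.093) and uptake genes are mostly below 0 (−0.18).

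The genes whose profile was most like the mean of the standardised members over the 6 libraries were Triap1 (Pearson's r 0.994, Spearman's rho 0.943), Txn1 (r 0.992, rho 1.0) and Nedd8 (r 0.991, rho 1.0). The mean member profile was 0.74, 0.89 and −0.49 in controls 1 to 3 and −0.48, 0.17 and −0.83 in mimics 1 to 3. These are the highest of all tested genes on 6 points and are given as a description.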

How the data were processed

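RNA from 6 RAW264.7 samples was sequenced with a SMARTer kit, per the labels. The deposited table holds 1 FPKM value per gene and library, made by the authors. fastp, HISAT2, DESeq2 and mm10 are named in the submitters' processing notes. Versions: not given in the sources used here, as for the annotation, the counter and strandedness. Of 16665 identifiers 16582 were found in GENCODE M21 (GRCm38), which gave symbols, positions, exon lengths and 3′ UTRs. Depth was recovered as the value that makes low FPKM values (up to 20 fragments) whole within 0.1 fragment for 98.5% to 99.0% of them.

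The filter was a mean of 1 FPKM. The test was that of limma 3.58.1 (R 4.3.3) on the log2 of FPKM + 1, two-sided, with its variance trend on mean level, Benjamini-Hochberg adjustment and a threshold of 0.05. Fold changes are on that scale, which understates low genes. limma and the trend removal were also run on simulated data. No outcome of that run is given here, and it does not show how they behave on these libraries. voom used TMM factors. The length and GC trend was a loess fit of each library's deviations, leaving 10128 genes. Exact permutation tests were used for ratios.

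The members and lists were chosen with earlier results of these data known. Named were all members and, per list, the 3 genes with the smallest p, plus the 3 most alike genes, and Actb and Gapdh as checks. Same-numbered libraries deviated together (correlations of deviations 0.287, 0.183 and 0.339 for numbers 1, 2 and 3), although negative control 2 and mimic 1 also did (0.308). All same-numbered pairs passed a rule of over 0.1, but the labels state no pairing and these correlations do not establish one. The main limma fit and the exact permutation tests of ratios treated the libraries as unpaired. Pairing by number entered only as an alternative, the replicate block. No columns were identical, and the closest pair of libraries, negative controls 1 and 2, had a chi-square of 4.49 per gene over recovered fragments, so all 6 were kept. Alternatives covered the pseudocount, filter, scaling, library weights, replicate block, voom, length and GC, and each library left out.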

Additional observations from a re-analysis of the deposited data

How the results depend on the processing

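Under 18 alternatives, Tyrobp, Fcer1g, Fcgr3 and Trem2 stayed below 0 in each, with log2 fold changes of −0.50 to −0.17, −0.35 to −0.056, −0.81 to −0.31 and −0.39 to −0.11. Changes of the filter and the replicate block leave a gene's estimate as it is, so those alternatives could not turn a sign. Calls by limma at an adjusted p under 0.05 came with library weights and without negative control 3. The weights gave 5276 of 10166 tested genes and 4 of 8 members. In the lists they gave 4 of 9 ITAM-coupled receptor, 17 of 34 proximal signalling and 9 of 14 ITIM-list genes. Of the uptake genes they gave 14 of 26, and of the TREM2 partner genes 12 of 16. With 1 library left out the calls ran from 0 to 2412 of 10166 genes and from 0 to 3 of 8 members. In those lists they ran from 0 to 0 of 9, 10 of 34, 4 of 14, 8 of 26 and 7 of 16. The counts above 0 came without negative control 3, where 11.6% of all tested genes were called higher and 12.2% lower. With both negative control 3 and the length and GC trend taken out there were 393 of 10128 genes and 1 of 8 members. In the lists there were 0, 1 (Hcls1), 2 (Clec12a, Ptpn6), 1 (Cd36) and 2 (Cst7, Spp1) genes. With the replicate block as a pairing term 0 genes and 0 members were called, and it changed no call of a ratio (exact sign-flip p = 0.25 for Fcgr3 over Fcgr2b, the smallest possible). Signs turned for small estimates but also for some larger ones, and the cause was not tested. Fcgr1 turned with the length and GC trend removed, with or without the block (0.089). With 1 library left out Fcgr1 ran from −0.34 to 0.25 (including 0.21 and 0.058) and Fcgr2b from −0.12 to 0.040 (including 0.00039 and 0.014). In those fits Syk ran from −0.25 to 0.064, Lyn from −0.056 to 0.013 (including 0.012) and Inpp5d from −0.21 to 0.019. Fcgr4, at 0.26 with all libraries, ran from −0.0028 to 0.46 in them. Hcst and Lgals3 stood at −0.51 and −0.23 with all libraries. With both negative control 3 and the length and GC trend taken out they stood at 0.0060 and 0.10. With 1 library left out the log2 ratio of Fcgr1 to Fcgr2b differed by −0.33 to 0.38 (including −0.19 and −0.12), Lyn to Syk by −0.13 to 0.34 (including −0.028), Fcgr3 to Fcgr2b by −0.77 to −0.33, Fcer1g to Tyrobp by 0.041 to 0.17 and Trem2 to Tyrobp by 0.054 to 0.28. Under a filter at a mean of 5 FPKM Fcgr1, Fcgr2b and Syk were not tested. Recovered fragments were as few as 43 for Fcgr1 and 93 for Fcgr3. The SE of Fcgr3 was 0.28 with all libraries and 0.11 without negative control 3.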
